A study of Mus musculus with 10 samples.

Results

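The genes described here are 9 members of the STAT and SOCS families, 5 genes for STAT transcription factors (*Stat3*, *Stat4*, *Stat5a*, *Stat5b* and *Stat6*) and 4 genes for feedback inhibitors of cytokine signalling (*Socs1*, *Socs2*, *Socs3* and *Cish*). They were chosen by symbol among 48321 gene symbols by a rule that uses no measured value, although earlier results of these data were known, and all 9 passed the filter on low counts. RNA-seq was performed on CD4+ T cells from the spleens of C57BL/6 mice carrying a GFP reporter of *Foxp3*. The sort used GFP, which stands for FoxP3 in the group names, and CD25, the surface protein encoded by *Il2ra*. WT mice were compared with *Satb1* F/F:*Thpok-cre* mice (KO), in which Cre expressed from *Thpok* removes *Satb1* from cells committed to the CD4 lineage, so that Tregs and other CD4+ T cells both lack it. Each of 5 groups held 2 libraries: FoxP3+CD25+ cells (Tregs) and FoxP3-CD25- cells (non-Tregs) of both genotypes, and the FoxP3+CD25- cells of KO mice. The mice were young adults of mixed sexes per the study's methods. Whether the WT mice carried Cre or a floxed allele is not given in the sources used here. No WT FoxP3+CD25- library was analysed here, so in any comparison of KO FoxP3+CD25- cells with a WT group the genotype and the gate cannot be told apart. The numbers in the labels were taken to mark mice within a genotype, although no label says so, and p-values measure only the spread between these few samples.

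Cytokines such as IL-2, IL-7, IL-4, IL-6 and IL-12 bind paired receptor chains whose Janus kinases phosphorylate STAT proteins, and the phosphorylated STAT dimers enter the nucleus and activate genes. SOCS proteins and CIS, the product of *Cish*, are induced by the same STATs and dampen the receptors and kinases, so that their transcripts are commonly read as a record of recent signalling. In Tregs, IL-2 acts through CD25 and STAT5 and is needed to maintain the cells and *Foxp3* itself.

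STAT dimers bind a palindrome of the form TTCNNNGAA. It was sought in the promoter windows of RefSeq (GRCm38.p6), 300 bases long with 250 before and 50 after the start of a gene, which gave 11 windows for 8 of the 9 members. *Socs2* has no entry in the table used. The motif reads the same on both strands. Matches were found for 2 members. A pair of them lay within 20 bases of sequence at the RefSeq start of *Cish*, and 1 lay upstream of the RefSeq start of *Socs3*. Both places are inside the GENCODE bounds given for these genes below, which begin further upstream than the RefSeq starts. The stretches of 30 bases that hold them are shown because these 2 genes carried the motif and behaved differently in the results, with the matches in capitals.
*Cish*, chr9:107296654-107296683, plus strand: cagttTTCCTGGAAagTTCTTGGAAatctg
*Socs3*, chr11:117969501-117969530, minus strand: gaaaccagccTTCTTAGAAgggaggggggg
The matches of *Cish* began at positions 1 and 12 counted from the RefSeq start, and that of *Socs3* at position -154. Of 32851 RefSeq windows of the same length, 8.30% held at least 1 match and 0.457% held 2 or more. The same letters with 1 more base in the spacer were in no member window and in 6.95% of all windows. These matches are a description of letters, and no binding was measured.

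Libraries held 6094952 to 12410064 reads counted on genes, with a median of 7721649, and a count of 3 corresponded to 0.242 to 0.492 CPM, the count scaled by library size, before normalization. The reads on genes were only 26.0% to 28.5% of all those tallied in a library. Reads that fell on no annotated feature numbered 1.32 to 1.53 for each read on a gene. The 4 CD4 T cell markers *Cd3e*, *Cd3d*, *Cd4* and *Trac* summed to between 2057 and 2756 CPM in every library. *Foxp3* was at 618 to 739 CPM in the CD25+ libraries, at 361 and 318 CPM in KO FoxP3+CD25- cells, and at 18.0 to 38.9 CPM in the FoxP3-CD25- libraries. *Il2ra* was at 627 to 760 CPM in the CD25+ libraries, 16.8 and 16.7 CPM in KO FoxP3+CD25- cells, and 1.55 to 11.4 CPM in FoxP3-CD25- cells. Both genes follow the sort and are no finding. The *Satb1* symbol itself was at 598 and 534 CPM in KO against 379 and 478 CPM in WT FoxP3+CD25+ cells, and at 841 and 682 CPM in KO against 818 and 881 CPM in WT FoxP3-CD25- cells. Its log2 difference of KO from WT was 0.40 ± 0.15 in the first and -0.16 ± 0.15 in the second, and neither was called (FDR = 1.0 and 0.927 in edgeR). KO FoxP3+CD25- cells had the highest *Satb1*, at 1186 and 993 CPM. It was called higher there than in KO FoxP3+CD25+ cells (0.95 ± 0.15, FDR = 0.00377) and WT FoxP3+CD25+ cells (1.35 ± 0.16, FDR = 0.000298). Against KO and WT FoxP3-CD25- cells it was not called (FDR = 0.160 and 0.523 in edgeR). Gene counts do not show whether the remaining transcripts hold the deleted part. Both libraries of WT mouse 1 had high *Xist* (14487 and 16362 counts) and no count of 4 Y chromosome genes, whereas the other 8 libraries had at most 4 *Xist* counts, so each result with a WT group was also computed without that mouse.

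The members differed in how far they moved between groups. From the lowest to the highest group mean, *Socs2* spanned 64.3-fold, *Cish* 8.80-fold, *Socs1* 2.17-fold and *Stat5a* 1.57-fold, whereas *Socs3*, *Stat5b*, *Stat4*, *Stat3* and *Stat6* spanned 1.39-fold, 1.25-fold, 1.21-fold, 1.15-fold and 1.14-fold. The most variable genes were thus the SOCS family feedback genes, apart from *Socs3*. Between the 2 libraries of a group, the largest folds were 5.04 for *Socs2* in KO FoxP3-CD25- cells and 1.80 for *Socs3* in WT FoxP3-CD25- cells.

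**Figure D1:**
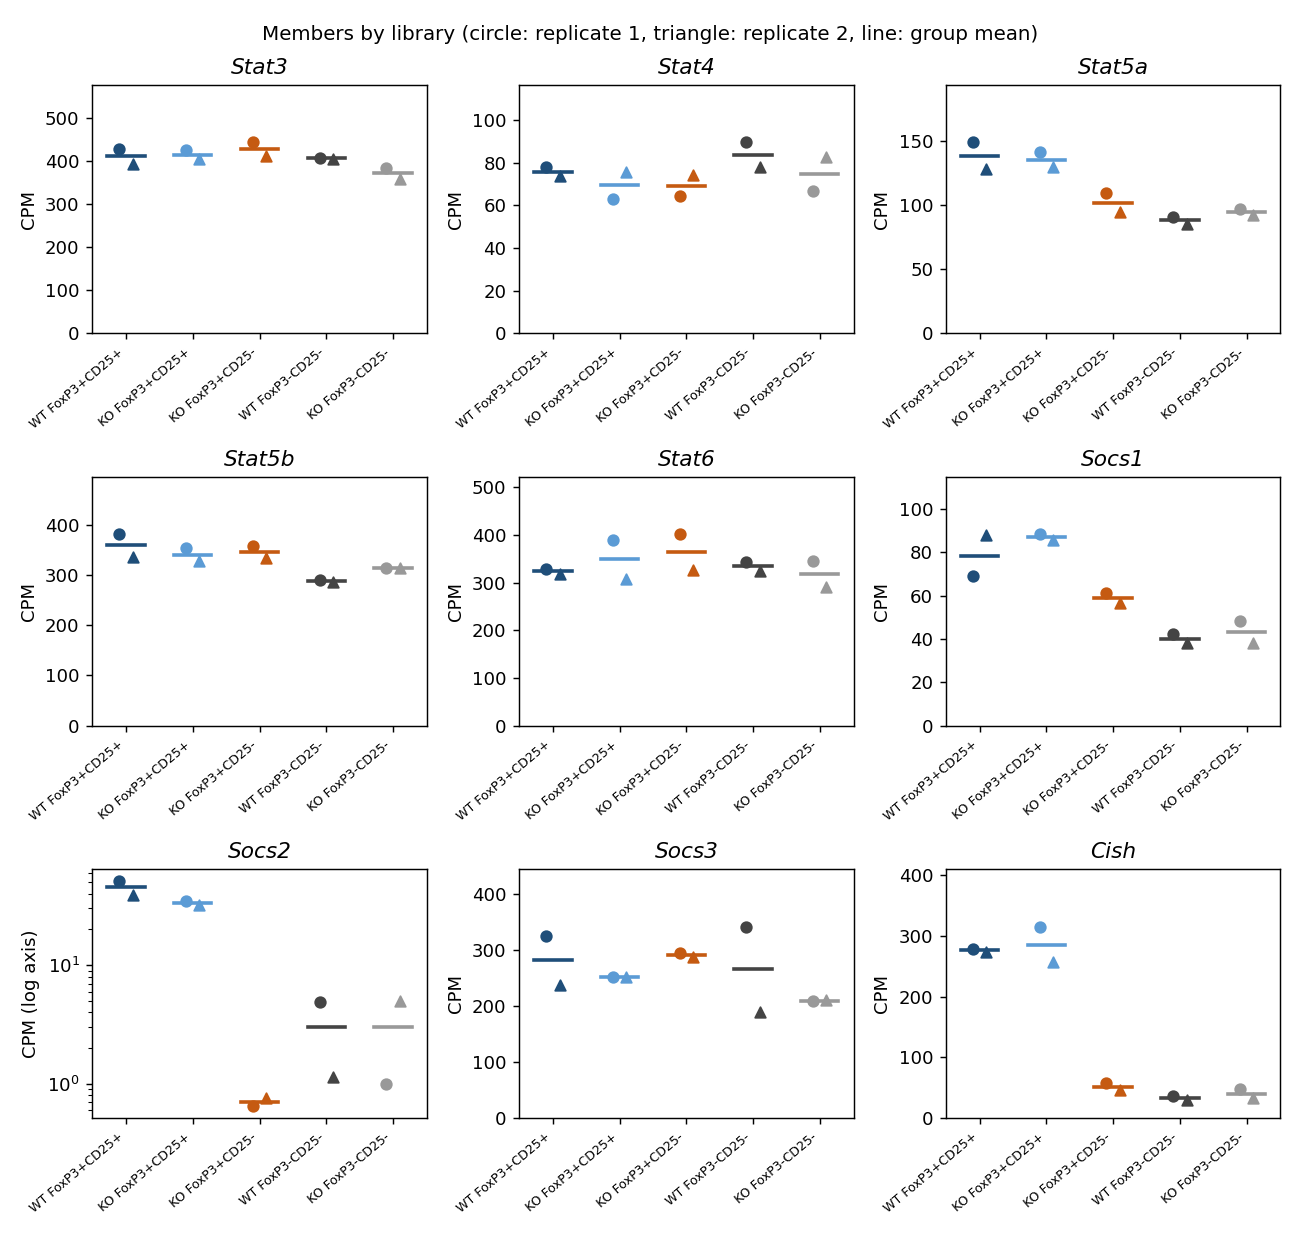
CPM of each member (vertical axes, linear from 0 except a log axis for Socs2) in the 10 libraries, grouped by genotype and gate. Circles are replicate 1, triangles replicate 2 and lines the mean of 2 libraries. Cish and Socs2 were high in the 4 FoxP3+CD25+ libraries (256 to 316 and 32.2 to 51.6 CPM), and in KO FoxP3+CD25- cells they were at 45.7 to 56.9 and 0.647 to 0.766 CPM.

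*Cish* (chromosome 9, 107296026 to 107302784, plus strand, GRCm38) encodes CIS, an SH2 protein that binds activated cytokine receptors and is a classical target of STAT5. It was at 278 and 274 CPM in WT FoxP3+CD25+ cells and at 36.3 and 28.7 CPM in WT FoxP3-CD25- cells. In KO mice it was at 316 and 256 CPM in FoxP3+CD25+ cells and at 47.6 and 32.1 CPM in FoxP3-CD25- cells. KO FoxP3+CD25- cells had 56.9 and 45.7 CPM, so that the lowest CD25+ library lay far above the highest CD25- library. These cells were sorted as FoxP3+, but *Foxp3* was called lower in them than in KO FoxP3+CD25+ cells (log2 difference -1.03 ± 0.22, FDR = 0.0153 in edgeR). The part of FoxP3 in the *Cish* level was not tested. Within a mouse, FoxP3+CD25+ cells held 7.66 and 9.57 times the *Cish* of FoxP3-CD25- cells in WT mice and 6.62 and 7.97 times in KO mice.

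*Socs2* (chromosome 10, 95385362 to 95417180, minus strand) encodes an inhibitor best known for restraining growth hormone signalling and is likewise induced through STAT5. It was at 51.6 and 39.2 CPM in WT FoxP3+CD25+ cells and at 4.89 and 1.14 CPM in WT FoxP3-CD25- cells. KO FoxP3+CD25+ cells had 34.9 and 32.2 CPM and KO FoxP3-CD25- cells 0.992 and 5.01 CPM. In KO FoxP3+CD25- cells it was at 0.647 and 0.766 CPM, below every other library, on 4 and 7 counts. The ratio of FoxP3+CD25+ to FoxP3-CD25- cells varied widely between mice, at 10.6 and 34.5 in WT and 35.2 and 6.44 in KO, and the low group was itself spread over 11 to 59 counts in WT and 6 to 38 counts in KO.

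*Socs1* (chromosome 16, 10782240 to 10785536, minus strand) encodes an inhibitor of Janus kinases that limits interferon and common gamma chain cytokine signalling. It was at 69.1 and 87.9 CPM in WT and 88.3 and 85.8 CPM in KO FoxP3+CD25+ cells. FoxP3-CD25- cells had 42.2 and 38.2 CPM in WT and 48.1 and 38.1 CPM in KO. The 2 libraries of KO FoxP3+CD25- cells, at 61.1 and 56.8 CPM, lay between these ranges and overlapped neither.

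*Socs3* (chromosome 11, 117966079 to 117970047, minus strand) encodes the inhibitor of gp130 receptors that signal through STAT3. It was at 325 and 238 CPM in WT FoxP3+CD25+ cells and at 342 and 190 CPM in WT FoxP3-CD25- cells, so that both WT groups overlapped and mouse 1 was the higher in each. KO libraries had 252 and 252 CPM in FoxP3+CD25+, 295 and 288 CPM in FoxP3+CD25- and 208 and 210 CPM in FoxP3-CD25- cells, close within each group.

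*Stat5a* and *Stat5b* encode the closely related transducers of IL-2 and IL-7, and lie 8626 bases apart on chromosome 11 (*Stat5b* from 100780731 to 100850724 on the minus strand, *Stat5a* from 100859351 to 100885169 on the plus strand). *Stat5a* was at 149 and 128 CPM in WT and 141 and 129 CPM in KO FoxP3+CD25+ cells. It was at 90.8 and 85.4 CPM in WT FoxP3-CD25-, 96.4 and 92.2 CPM in KO FoxP3-CD25-, and 109 and 94.1 CPM in KO FoxP3+CD25- cells. Every CD25+ library was thus above every CD25- library. *Stat5b* was at 382 and 338 CPM in WT and 354 and 328 CPM in KO FoxP3+CD25+ cells. FoxP3-CD25- cells had 292 and 286 CPM in WT and 314 and 316 CPM in KO, whereas KO FoxP3+CD25- cells had 358 and 335 CPM, overlapping both CD25+ groups.

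Counts per kb of exon set the levels of different genes on a common scale. The length is that of all annotated exons of a gene merged, 7133 bases for *Stat5a* and 5539 for *Stat5b*. Which transcripts the cells expressed was not determined, so a gene with long unused exons reads too low. On the per-kb scale *Stat5b* exceeded *Stat5a* in all 10 libraries, by 3.24 to 3.41 times in the 4 FoxP3+CD25+ libraries and by 4.14 to 4.58 times in the other 6. The ranges did not overlap, and KO FoxP3+CD25- cells lay with the FoxP3-CD25- cells. The libraries of a mouse share their animal, so the ratio is given as a description without a test.

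**Figure D2:**
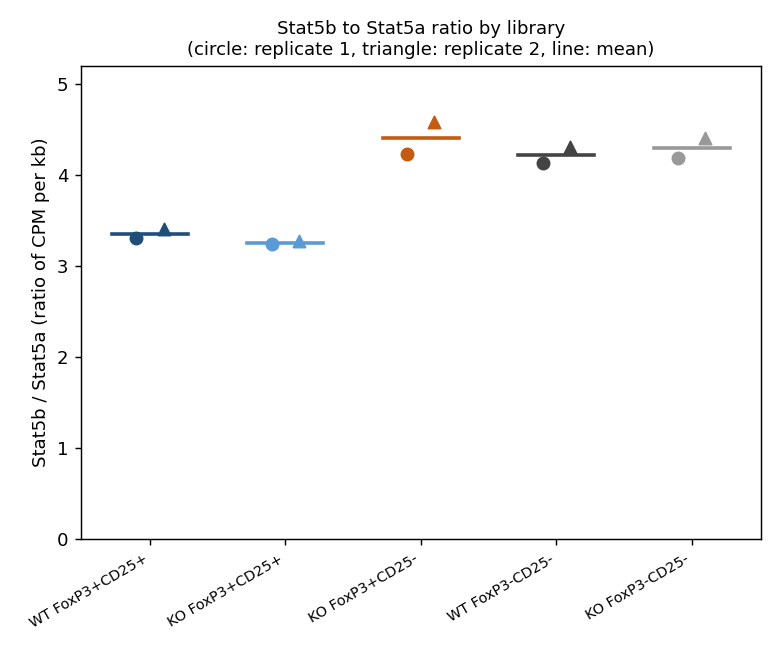
Ratio of Stat5b to Stat5a in CPM per kb of exon (vertical axis, from 0) in the 10 libraries by group. Circles are replicate 1, triangles replicate 2 and lines the mean of 2 libraries. The 4 FoxP3+CD25+ libraries sit at 3.24 to 3.41 and the 6 CD25- libraries at 4.14 to 4.58.

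*Stat3* (chromosome 11, 100885098 to 100939540, minus strand) transduces IL-6, IL-10 and IL-21. It was at 430 and 395 CPM in WT and 426 and 405 CPM in KO FoxP3+CD25+ cells, 445 and 412 CPM in KO FoxP3+CD25- cells, and 407 and 407 CPM in WT FoxP3-CD25- cells. KO FoxP3-CD25- cells, at 384 and 360 CPM, were the lowest. *Stat6* (chromosome 10, 127642986 to 127660957, plus strand), the transducer of IL-4, was at 329 and 318 CPM in WT FoxP3+CD25+, 344 and 325 CPM in WT FoxP3-CD25-, 389 and 309 CPM in KO FoxP3+CD25+, 401 and 327 CPM in KO FoxP3+CD25- and 346 and 291 CPM in KO FoxP3-CD25- cells. In each of its 3 KO groups mouse 1 was above mouse 2.

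*Stat4* (chromosome 1, 51987148 to 52107189, plus strand), the transducer of IL-12, was at 77.9 and 73.8 CPM in WT FoxP3+CD25+ and 89.6 and 77.8 CPM in WT FoxP3-CD25- cells. KO cells had 63.0 and 75.9 CPM in FoxP3+CD25+, 64.3 and 74.3 CPM in FoxP3+CD25- and 67.0 and 82.6 CPM in FoxP3-CD25- cells, and each neighbouring pair of groups in the order of means overlapped.

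On the scale of CPM per kb of exon, *Socs3* (median 87.1, range 65.6 to 118 over the 10 libraries), *Stat6* (74.5, 66.2 to 91.1), *Stat5b* (59.9, 51.6 to 68.9) and *Stat3* (42.7, 37.7 to 46.7) were the most abundant members. *Socs1* (median 20.3), *Stat4* (19.4) and *Stat5a* (14.4) followed with overlapping ranges. *Cish* ran from 4.47 to 49.2 and so passed from the low end to the level of *Stat3* between groups, and *Socs2*, at 0.0678 to 5.41, was the lowest member in every library. The merged exon lengths limit each such ranking between genes, and overlapping genes limit some of these values. Another gene of the same strand, *Gm28177*, shares 1033 exonic bases or 26.7% of the *Stat4* exon length, and *Stat5a* and *Stat3* share 72 exonic bases on opposite strands. *Gm17041*, annotated as antisense, lies with its whole exon of 479 bases inside *Cish* exons and had 68.5 and 92.8 CPM in WT FoxP3+CD25+ cells against 9.61 and 10.4 CPM in WT FoxP3-CD25- cells. The strand setting of the counting is not given in the sources used here, so reads of *Gm17041* and *Cish* cannot be told apart.

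The first comparison asked which members distinguish WT Tregs from WT non-Tregs. *Cish*, *Socs2*, *Socs1* and *Stat5a* rose in FoxP3+CD25+ cells and no member fell, 4 of 9 members at a false discovery rate (FDR, Benjamini-Hochberg) under 0.05 in edgeR's quasi-likelihood test. Of all 13796 genes tested, 10.9% were called, and 7.15% of all tested genes were called higher. *Cish* was higher by 3.08 ± 0.20 on the log2 scale (SE, n = 2 against 2; FDR = 8.82e-06 in edgeR), which ranked 18 among all genes by p-value. *Socs2* was higher by 3.84 ± 0.46 (FDR = 0.000365), *Socs1* by 0.97 ± 0.15 (FDR = 0.00161) and *Stat5a* by 0.65 ± 0.12 (FDR = 0.00438). The value of *Socs2* was 5.29 without WT FoxP3-CD25- replicate 1, the higher of the low pair, and 3.21 without replicate 2 of that group. The *Stat5a* call was lost without both libraries of WT mouse 1 (FDR = 0.0744), a fit in which the lone WT library of each group is assumed to vary like the others.

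*Stat5b* was higher in both WT mice, by 1.31 and 1.18 times, and its log2 difference of 0.32 ± 0.10 missed the threshold (FDR = 0.0781). It passed with the mouse as a block (FDR = 0.0139), so that 5 members were then called, and also without WT FoxP3+CD25+ replicate 2. Log2 differences were 0.02 for *Stat3*, -0.14 for *Stat4*, -0.05 for *Stat6* and 0.08 for *Socs3*, and none passed. The WT groups did not overlap for 5 members, all higher in FoxP3+CD25+ cells, where 23.1% of all genes were higher without overlap and 47.0% did not overlap in either direction. The median log2 difference was 0.32 over the members and -0.02 over all genes.

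The same comparison in KO mice called the same 4 genes, *Cish*, *Socs2*, *Socs1* and *Stat5a*, all higher in FoxP3+CD25+ cells, where 6.34% of all genes were called and 3.52% were higher. *Cish* was higher by 2.85 ± 0.20 on the log2 scale (FDR = 2.86e-05), *Socs2* by 3.39 ± 0.51 (FDR = 0.00259), *Socs1* by 1.02 ± 0.15 (FDR = 0.00255) and *Stat5a* by 0.52 ± 0.12 (FDR = 0.0254). The value of *Socs2* was 5.06 without KO FoxP3-CD25- replicate 2 and 2.74 without replicate 1 of that group. The *Stat5a* call was lost when any 1 of the 4 libraries compared was left out (highest FDR = 0.182). *Stat5b*, *Stat3*, *Stat6*, *Stat4* and *Socs3* had log2 differences of 0.12, 0.16, 0.13, -0.11 and 0.27 and did not pass. In 7 members the KO groups did not overlap, all higher, against 23.6% of all genes in that direction and 46.5% in either.

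Whether *Satb1* deletion altered the Treg difference was tested as the KO difference minus the WT difference. The interaction was -0.44 ± 0.75 on the log2 scale for *Socs2*, -0.24 ± 0.27 for *Cish*, -0.20 ± 0.14 for *Stat5b* and 0.18 ± 0.20 for *Stat6*, each with FDR = 1.0 in edgeR. None of the 9 members passed, and none had an unadjusted p under 0.05. Of all genes 0% were called, with 685 at an unadjusted p under 0.05, whereas DESeq2 called 25 genes and the fit with the mouse as a block 149, none of them a member. The SE of 0.75 for *Socs2* is the widest of these, so a moderate change of its Treg difference was not detectable at this replication.

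**Figure D3:**
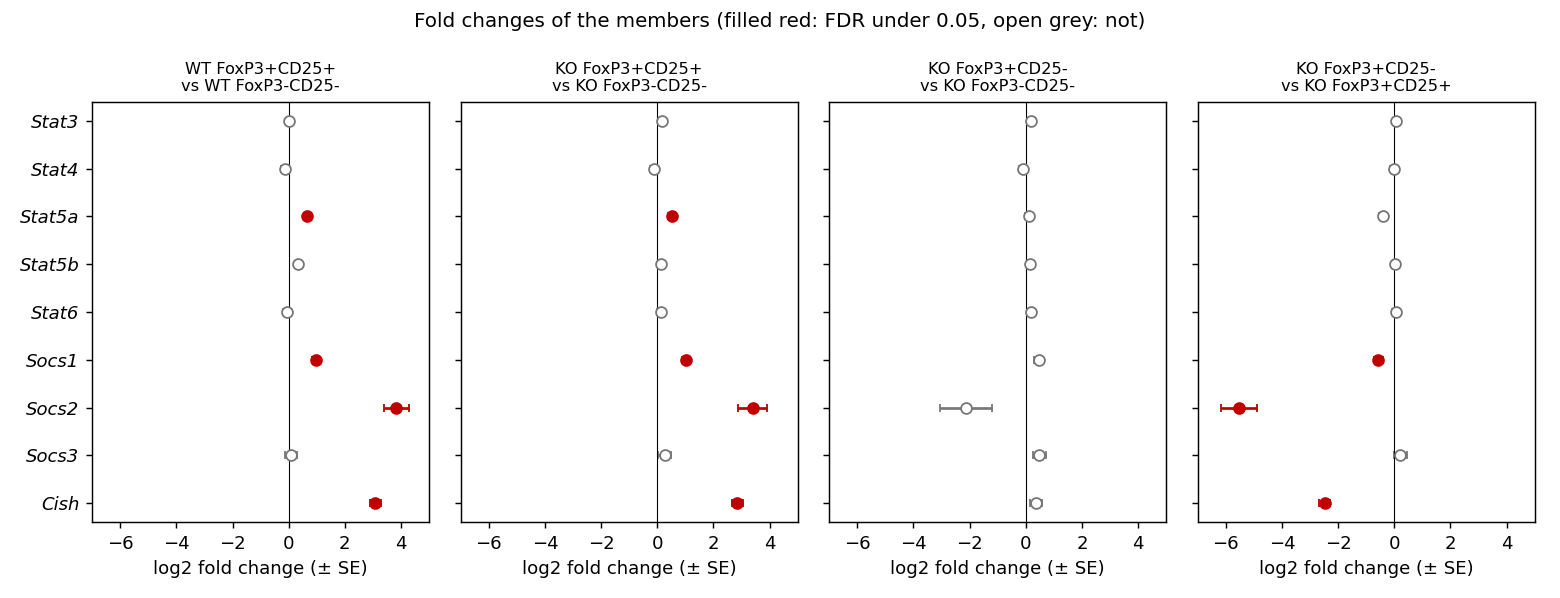
Log2 fold change (horizontal axis, ± SE) of each member in 4 comparisons named above the panels, positive values being higher in the group named first. Filled red points passed an FDR of 0.05 and open grey points did not. Cish, Socs2, Socs1 and Stat5a passed in FoxP3+CD25+ against FoxP3-CD25- cells of both genotypes, and 0 members passed in KO FoxP3+CD25- against KO FoxP3-CD25- cells.

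Direct comparison of KO with WT cells called no member. In FoxP3+CD25+ cells the log2 difference of KO from WT was -0.43 ± 0.37 for *Socs2*, 0.15 for *Socs1* and 0.05 for *Cish* (FDR = 1.0 for each in edgeR), and 0 members had an unadjusted p under 0.05. Only 1 gene was called, 0.00725% of those tested, with 593 at an unadjusted p under 0.05, and DESeq2 called 0 members as well. *Socs2* was the only member whose libraries did not overlap, lower in KO, where 14.2% of all genes were lower without overlap and 27.7% did not overlap in either direction. In FoxP3-CD25- cells 0 members passed in edgeR or DESeq2 and 0 had an unadjusted p under 0.05, where 0.145% of genes were called and 1106 had an unadjusted p under 0.05. *Socs3* differed by -0.35 ± 0.23, *Cish* by 0.29 ± 0.20 and *Socs2* by 0.01 ± 0.64. *Stat5a* and *Stat5b* were higher and *Stat3* lower in KO without overlap, against 38.3% of all genes.

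KO FoxP3+CD25- cells, which express *Foxp3* with little *Il2ra*, were then set against the other groups. Against KO FoxP3+CD25+ cells, *Cish*, *Socs2* and *Socs1* fell and no member rose, 3 of 9 members where 7.02% of all genes were called and 4.76% were lower. The log2 difference was -2.48 ± 0.19 for *Cish* (FDR = 6.50e-05), -5.52 ± 0.64 for *Socs2* (FDR = 0.000551) and -0.56 ± 0.15 for *Socs1* (FDR = 0.0451). In the 2 KO mice the CD25+ cells held 5.55 and 5.60 times the *Cish*, 54.0 and 42.1 times the *Socs2* and 1.45 and 1.51 times the *Socs1* of the CD25- cells. The *Socs1* call was lost when any 1 of the 4 libraries was left out (highest FDR = 0.257). *Stat5a* had a log2 difference of -0.41 ± 0.12 (FDR = 0.0653) and passed with the mouse as a block (FDR = 0.00685) and with scaling by library size alone. The groups did not overlap for 1 member that was higher and 4 that were lower, against 49.3% of all genes.

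Against KO FoxP3-CD25- cells, 0 of 9 members were called in edgeR, where 1.67% of all genes were, and DESeq2 called 0 as well. At an unadjusted p under 0.05 there were 2 members. The log2 difference was -2.12 ± 0.92 for *Socs2* (FDR = 0.459), 0.45 ± 0.15 for *Socs1* (FDR = 0.241), 0.37 ± 0.20 for *Cish* (FDR = 0.644) and 0.48 ± 0.23 for *Socs3* (FDR = 0.539). *Socs3* passed with the mouse as a block (FDR = 0.0126). The libraries did not overlap for 4 members that were higher and 1 that was lower, against 39.3% of all genes. The 4 memory or activation markers *Cd44*, *Itgb1*, *S100a4* and *Ifng* moved with this comparison. In that comparison they summed to 140 and 167 CPM in KO FoxP3+CD25- cells and to 922 and 1316 CPM in KO FoxP3-CD25- cells, all 4 being lower, and to between 412 and 839 CPM in the other groups. In KO FoxP3+CD25- cells 3 of the 4 were also called lower against KO FoxP3+CD25+ cells, against WT FoxP3+CD25+ cells and against WT FoxP3-CD25- cells, with median log2 differences over the list of -2.19, -2.66 and -2.09. Their part in the member values of these comparisons was not tested. In these bulk samples, fewer cells of a type and less RNA per cell cannot be told apart.

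Against the WT groups the pattern was alike on the Treg side. Compared with WT FoxP3+CD25+ cells, *Cish*, *Socs2* and *Stat5a* fell, 3 of 9 members where 11.2% of all genes were called and 7.34% were lower. Their log2 differences were -2.43 ± 0.19 (FDR = 4.41e-05), -5.95 ± 0.63 (FDR = 0.000174) and -0.45 ± 0.12 (FDR = 0.0334). Without overlap 4 members were lower and 0 higher, against 23.9% of all genes lower and 47.7% in either direction. The *Stat5a* call held under 6 of 12 alternatives and was lost without WT FoxP3+CD25+ replicate 1 or either KO FoxP3+CD25- library (highest FDR = 0.257). *Socs1* had a log2 difference of -0.42 ± 0.15 (FDR = 0.108) and passed without WT FoxP3+CD25+ replicate 1 (FDR = 0.0422). Compared with WT FoxP3-CD25- cells, 0 members passed in edgeR or DESeq2, where 0.768% of all genes were called. At an unadjusted p under 0.05 there were 4 members, with log2 differences of 0.65 ± 0.20 for *Cish* (FDR = 0.242), 0.55 ± 0.15 for *Socs1* (FDR = 0.184), -2.11 ± 0.87 for *Socs2* (FDR = 0.485) and 0.26 ± 0.10 for *Stat5b* (FDR = 0.448). The libraries did not overlap for 5 members that were higher and 2 that were lower, against 37.5% of all genes. These comparisons share libraries with those above.

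**Figure D4:**
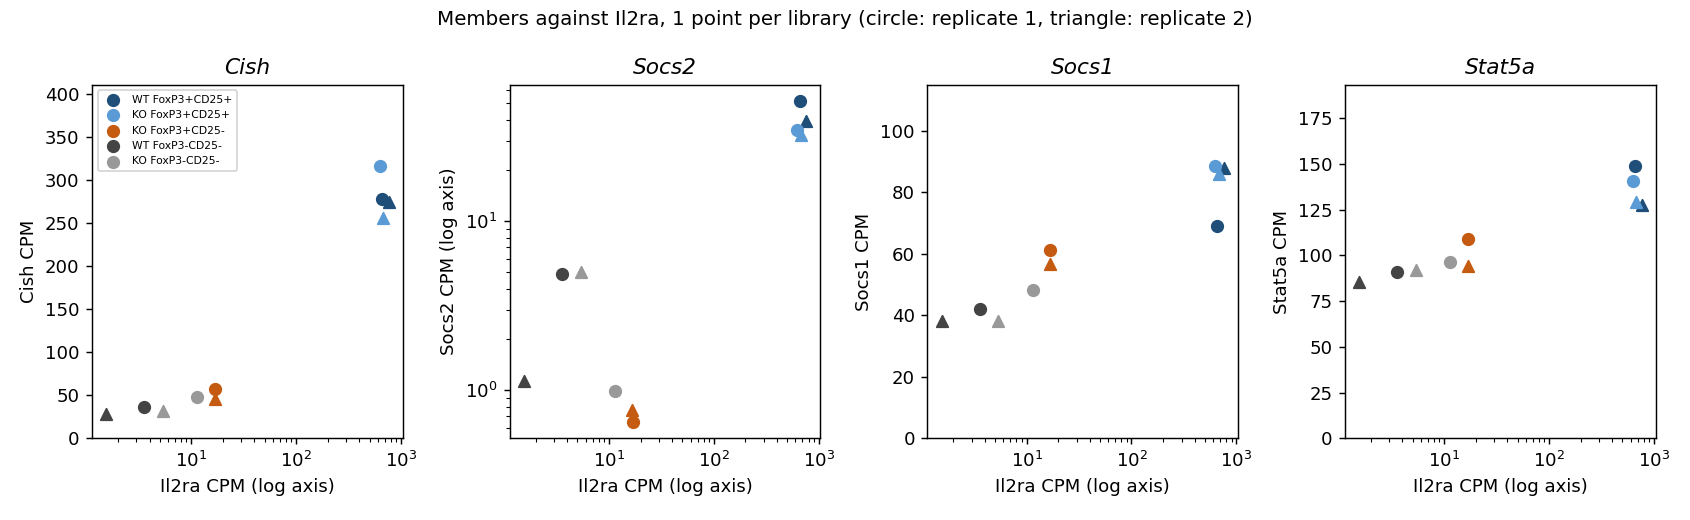
CPM of Cish, Socs2, Socs1 and Stat5a (vertical axes, linear from 0 except a log axis for Socs2) against CPM of Il2ra (horizontal log axis), with 1 point per library coloured by group. Circles are replicate 1 and triangles replicate 2. The 4 FoxP3+CD25+ libraries lie together at the upper right, and KO FoxP3+CD25- cells (Il2ra at 16.8 and 16.7 CPM) lie with the FoxP3-CD25- cells for Cish and below them for Socs2.

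The 10 libraries fell into separate clusters by CD25, as the plot against *Il2ra* shows, so a correlation over them reflects that split and the mice and sorts they share. As a description, Pearson's r of log2 CPM was 0.97 between *Cish* and *Stat5a*, 0.94 between *Cish* and *Socs1* and 0.87 between *Cish* and *Socs2*, but 0.23 between *Cish* and *Socs3*. The genes most like *Cish*, of 9491 compared, were *Gm17041* (r = 0.99), which shares its exon with *Cish*, and *Vav2* (0.99). Those most like *Socs2* were *Itgb8* (0.98) and *Penk* (0.98), those most like *Socs1* were *2510009E07Rik* (0.97) and *Slc22a5* (0.97), and those most like *Stat5a* were *Bmpr2* (0.99) and *Kdm2b* (0.98). *Socs3* was most like *Pim3* (0.95) and *Tcf20* (0.91), and *Stat3* was most like *Peli1* (0.95) and *Mef2d* (0.94). For *Stat4* they were *Gnl3l* (0.89) and *Smim10l1* (0.89), for *Stat5b* *Slc6a6* (0.93) and *Amer1* (0.93), and for *Stat6* *Ptges3* (0.94) and *Eps15l1* (0.94).

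The rest of the pathway was read from 8 lists holding 69 genes, of which 67 were tested. Between KO and WT FoxP3+CD25+ cells, 0 of the 67 were called in edgeR. In FoxP3-CD25- cells 2 receptor chains were higher and 1 STAT5 target was lower in KO, where 0.145% of all genes were called. *Il2ra* is on the receptor and STAT5 target lists, and where CD25+ and CD25- cells are compared it is selected by the sort itself, so its call there is counted below but is no finding. In WT FoxP3+CD25+ against FoxP3-CD25- cells 19 were higher and 7 lower, and in KO cells 12 were higher and 9 lower. Of all genes, 10.9% were called in WT and 6.34% in KO. The KO minus WT test called 0 of the 67 in edgeR, with 17 at an unadjusted p under 0.05. A call in 1 genotype alone is therefore not shown to be a difference between genotypes. Of 20 cytokine receptor chains, 6 were higher and 2 lower in WT, and 7 were higher and 3 lower in KO. *Il2rb*, the beta chain that IL-2 and IL-15 share, was at 827 to 1109 CPM in WT and 858 to 1096 CPM in KO FoxP3+CD25+ cells, against 113 to 159 and 268 to 283 CPM in FoxP3-CD25- cells. Its log2 difference was 2.83 ± 0.23 in WT (FDR = 3.06e-05) and 1.83 ± 0.22 in KO (FDR = 0.000657). *Il7r*, the IL-7 receptor chain, had a log2 difference of -1.23 ± 0.18 in KO (FDR = 0.00222). It was lower in FoxP3+CD25+ cells of both genotypes. Its level was 299 to 410 CPM in WT and 369 to 451 CPM in KO FoxP3+CD25+ cells. FoxP3-CD25- cells had 904 to 1151 CPM in WT and 904 to 1013 CPM in KO. In WT, the receptor chain genes *Il10ra* of IL-10 and *Il12rb1* of IL-12 rose, the first by 1.24 ± 0.13 (FDR = 0.000141) and the other by 1.66 ± 0.18 (FDR = 0.000206). *Il10ra* was at 120 to 145 CPM in WT FoxP3+CD25+ and 53.9 to 58.0 CPM in WT FoxP3-CD25- cells. KO cells had 185 to 207 CPM in FoxP3+CD25+, 189 to 198 CPM in FoxP3+CD25- and 129 to 152 CPM in FoxP3-CD25- cells. The KO FoxP3-CD25- libraries thus overlapped the WT FoxP3+CD25+ libraries for this gene.

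In KO FoxP3+CD25- cells *Il2rb* was at 121 to 169 CPM, and against KO FoxP3+CD25+ cells its log2 difference was -2.76 ± 0.23 (FDR = 7.26e-05) while *Il7r* rose by 1.50 ± 0.18 (FDR = 0.000615). There, 3 receptor chains were higher and 5 lower, so the receptor transcripts moved in both directions. Against KO FoxP3-CD25- cells 1 receptor chain was higher (*Ifngr1*, 1.08 ± 0.15, FDR = 0.00494) and 2 were lower, *Il9r* (-2.93 ± 0.30, FDR = 0.000826) and *Il12rb1* (-1.14 ± 0.20, FDR = 0.0166). For these 2, KO FoxP3-CD25- cells (38.7 to 43.8 and 27.3 to 33.7 CPM) also lay above WT FoxP3-CD25- cells (6.63 to 11.1 and 14.0 to 16.6 CPM). KO FoxP3+CD25- cells, at 4.05 to 7.11 and 11.5 to 16.0 CPM, overlapped the WT FoxP3-CD25- cells.

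Of the 4 Janus kinases, *Jak3*, the partner of the common gamma chain, was the only gene called in WT Tregs against non-Tregs (0.51 ± 0.13, FDR = 0.0307), and 0 were called in KO mice. Of 6 other STAT and SOCS genes, *Socs5* was higher in WT FoxP3+CD25+ cells by 1.22 ± 0.16 (FDR = 0.000529), at 46.7 to 49.5 CPM against 19.5 to 21.8 CPM. In KO FoxP3+CD25+ cells it was at 31.0 to 36.6 CPM against 22.5 to 23.2 CPM and was not called. The KO minus WT test called 0 of the 6 genes in edgeR, with 1 at an unadjusted p under 0.05. Of 10 phosphatases and PIAS proteins, 0 were called in WT by edgeR and 1 had an unadjusted p under 0.05, and in KO 1 was lower, *Ptpn11* (-0.94 ± 0.16, FDR = 0.00500).

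Of 12 genes known as STAT5 targets, the WT FoxP3+CD25+ cells had 4 higher and 3 lower, and the KO cells 4 higher and 2 lower. The kinase gene *Pim1* rose by 1.20 ± 0.18 in WT (FDR = 0.00144) and by 1.28 ± 0.18 in KO (FDR = 0.00206). *Prf1*, which encodes perforin, fell by 2.49 in WT (SE 0.15, FDR = 6.27e-06) and by 1.41 in KO (SE 0.17, FDR = 0.000657). It was at 52.7 to 53.3 CPM in WT and 20.2 to 23.3 CPM in KO FoxP3-CD25- cells. FoxP3+CD25+ cells had 8.98 to 9.85 CPM in WT and 7.93 to 8.39 CPM in KO. In KO FoxP3+CD25- against KO FoxP3+CD25+ cells, the log2 difference was -0.92 ± 0.18 for *Pim1* (FDR = 0.0109) and -1.57 ± 0.22 for the lymphotoxin gene *Lta* (FDR = 0.00149), whereas *Prf1* rose by 2.02 ± 0.16 (FDR = 7.26e-05). Against KO FoxP3-CD25- cells 0 of the 12 were called in edgeR, with 2 at an unadjusted p under 0.05.

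Of 8 tested STAT3 targets, WT Tregs had 5 higher and 1 lower than non-Tregs, and KO Tregs 1 higher and 1 lower. The KO minus WT test called 0 of these 8 in edgeR, with 3 at an unadjusted p under 0.05. *Hif1a* rose by 1.01 ± 0.14 (FDR = 0.00104) and *Maf* by 1.45 ± 0.30 (FDR = 0.00993) in WT, while the cytokine gene *Il21* fell by 4.40 (SE 0.45, FDR = 0.000128). Of 6 STAT4 targets, 3 fell in KO FoxP3+CD25- against KO FoxP3-CD25- cells, with log2 differences of -5.32 ± 0.50 for *Ifng* (FDR = 0.000605), -3.98 ± 0.49 for *Tbx21* (FDR = 0.00277) and -2.85 ± 0.60 for *Il18rap* (FDR = 0.0424). *Stat4* itself was not called there. *Ifng* is also on the memory and activation list above. Of 4 tested STAT6 targets, the chemokine receptor gene *Ccr8* rose in FoxP3+CD25+ cells by 3.90 ± 0.39 in WT (FDR = 0.000110) and 3.51 ± 0.41 in KO (FDR = 0.000611).

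Markers of other cell types were examined beside these results. The B cell list of 5 genes summed to 414 to 598 CPM in WT and 370 to 428 CPM in KO FoxP3+CD25+ cells, and to 304 to 329, 222 to 270 and 254 to 299 CPM in WT FoxP3-CD25-, KO FoxP3-CD25- and KO FoxP3+CD25- cells. It therefore moved with *Cish* and *Socs2*. *Ighm* held most of the sum, whereas the defining marker *Ms4a1* was at no more than 0.763 CPM in any library. *Cd79b*, of the same list, was at 14.6 to 19.1 CPM in WT FoxP3+CD25+ against 0.826 to 1.41 CPM in WT FoxP3-CD25- cells, a log2 difference of 3.86 ± 0.35 (FDR = 6.12e-05), and at 14.4 to 14.6 against 3.16 to 5.13 CPM in KO cells (1.83 ± 0.32, FDR = 0.00582). The part of the B cell list in the member values was not tested. The 4 myeloid markers summed to 17.6 to 25.0 CPM, the 3 NK markers to 0 to 4.22 CPM, the 3 erythroid markers to 0.745 to 2.30 CPM and the 2 CD8 markers to 9.38 to 16.6 CPM over the 10 libraries. The 3 naive T cell markers summed to 1352 to 1832 CPM in the FoxP3+CD25+ libraries and 2030 to 2557 CPM in the others, opposite to *Cish*, and their part in the member values was not tested.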

How the data were processed

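HISAT2 2.1.0 was used by the authors for alignment to mm10, and HTSeq for counting (0.11.1 in the submitters' processing notes). The deposited values are raw counts per gene symbol in 10 libraries, neither normalized nor filtered. Libraries were made with the NEBNext Ultra RNA kit per the labels (Ultra II in the study's methods), and the strand setting of the counting is not given in the sources used here.

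The 10 libraries entered a single edgeR (version 4.0.16, R 4.3.3) quasi-likelihood fit with a mean per group, after filterByExpr (minimum count 10; 13796 genes of 48321 symbols kept) and TMM normalization. Tests were two-sided with Benjamini-Hochberg adjustment over all genes at FDR 0.05. The fit had 5 residual degrees of freedom and a common biological coefficient of variation of 0.147. SE is the log2 fold change divided by the square root of its F statistic. CPM use TMM factors, and correlations use log2 CPM with a prior count of 2. Coordinates and exon lengths, with all exons of a gene merged, are GENCODE M21 on GRCm38. With 2 libraries per group, precision is limited by their number. No pair of libraries was identical (highest correlation 0.990).

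Same-numbered libraries deviated together within a genotype (correlations 0.303 in WT and 0.421 to 0.445 in KO) and less so between genotypes (-0.01 to 0.114), so the mouse was the block within a genotype. The members and lists were chosen with earlier results of these data known. Named genes were the 9 members, up to 4 genes of lowest p-value per list and comparison, the 2 genes most like each member (mean log2 CPM of at least 3), *Satb1*, *Foxp3* and *Il2ra*, and the cell type markers, of which 1 is not reported here. The overlapping genes and the sex-linked genes were named after their values were seen. Alternatives were no filter, RLE or library size scaling, DESeq2 (version 1.42.0), the legacy quasi-likelihood method, the compared libraries alone, the block, each library left out and WT mouse 1 left out. The procedure was tested for some of the comparisons on simulated data with independent libraries and the same biological coefficient of variation for all genes. That simulation did not include mice shared between libraries.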

Additional observations from a re-analysis of the deposited data

Results flagged for a closer look

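The mice of the 2 genotypes lay on opposite sides of no difference for *Stat6*, although it was not called in either genotype (log2 difference -0.05 ± 0.14 in WT and 0.13 ± 0.14 in KO, with overlapping libraries). FoxP3+CD25+ cells held 0.958 and 0.980 times the *Stat6* of FoxP3-CD25- cells in the 2 WT mice and 1.12 and 1.06 times in the 2 KO mice. The share of all genes with such opposite directions was not computed, so the pattern may be common. The KO minus WT difference was 0.18 on the log2 scale (SE 0.20), and the interaction test of edgeR did not call it (FDR = 1.0).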

How the results depend on the processing

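Of 219 values of single members under the alternatives, 197 kept their direction and their side of the threshold, 15 kept the direction and lost the call, 7 gained one and 0 reversed. These values cover only members called in a comparison by the main fit or by at least 1 alternative. Small differences that were never called, which could reverse more easily, were not counted. *Cish* and *Socs2* passed under every alternative run in each of the 4 comparisons that called them, and *Socs1* in both comparisons of FoxP3+CD25+ with FoxP3-CD25- cells. With the replicate block, the members called went from 0 to 1 in KO FoxP3+CD25- against KO FoxP3-CD25- cells (*Socs3*), and from 0 to 1 in KO FoxP3+CD25- against WT FoxP3-CD25- cells (*Cish*, FDR = 0.0318). In the latter the block is the replicate number, which pairs no mice between genotypes. Calls over all genes rose as well, from 230 to 787 in the first and from 106 to 217 in the second. The block also called 2634 against 1504 in the WT comparison and 1650 against 874 in the KO comparison of FoxP3+CD25+ with FoxP3-CD25- cells. The depth limits *Socs2* most, on 4 and 7 counts in its lowest group.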
